A study of Mus musculus with 6 samples.

Results

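The proteasome subunit genes were taken by symbol, as every gene of the deposited table named Psma, Psmb, Psmc or Psmd followed by a number, leaving out the inducible immunoproteasome genes Psmb8, Psmb9 and Psmb10. This gave 36 of 23235 genes, 16 of the core particle and 20 of the regulatory particle. Psmc3ip, whose symbol is similar but which encodes a meiotic recombination factor, does not match the rule. The cells were long-term haematopoietic stem cells (LT-HSCs), which sustain blood formation, sorted from the bone marrow of C57BL/6 mice aged 2 months. There were 3 libraries from wild-type (WT) and 3 from Hmces knockout mice, and all were used, although the series' design text mentions duplicates. Titles of both genotypes share the tag 13bp, which no source used here explains. Hmces encodes a shield of abasic sites in single-stranded DNA. Each library was made by the Smart-seq2 method from 1500 sorted cells. The labels name no treatment and do not describe the knockout allele, how it was driven, or whether the libraries of a genotype came from separate mice, so the p-values below cover the spread between these samples alone, part or all of which may be technical.

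The proteasome is the protease that degrades ubiquitin-tagged proteins. Its core particle is a barrel of 4 stacked rings, with alpha subunits outside, which gate entry, and beta subunits inside, of which Psmb5, Psmb6 and Psmb7 carry the active sites. The regulatory particle caps the barrel. Its ATPases (Psmc genes) unfold the substrate, and its other subunits (most Psmd genes) recognise, dock and de-ubiquitinate it. Because each subunit is needed for a complete particle, the genes are commonly raised together, among others through the transcription factor NRF1, the product of Nfe2l1. Blood stem cells are known for a low rate of protein synthesis and for depending on protein quality control.

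Values are FPKM, fragment counts scaled by the authors to transcript length and to the library total, which is meant to make levels comparable between genes. How far it does so here was not tested, so gaps in level between genes are descriptions of FPKM. The estimated fragments were 9700000, 13100000 and 14200000 in WT replicates 1 to 3, and 9500000, 11200000 and 9300000 in knockout replicates 1 to 3. The part of depth in the results below was not tested. Hmces is listed under its older symbol 8430410A17Rik. It stood at 39.5, 45.4 and 41.0 FPKM across the WT replicates and 8.95, 0.222 and 6.95 FPKM across the knockout replicates, lower in each knockout library, in the direction of the labels. Even so, at a log2 fold change of -3.23, Hmces did not pass the test described below (limma adjusted p = 0.289). A gene that does not pass is therefore not shown to be unchanged. Stem cell markers were present in every library, among them Kit at 101 to 141 FPKM and Meis1 at 122 to 160.3 FPKM. Others were low. Slamf1 lay between 1.39 and 5.08 FPKM, Mecom between 3.74 and 8.37 FPKM and Fgd5 between 0.414 and 1.23 FPKM, and Hoxb5 was below 1 FPKM in all. Of the 10 markers of this list tested, 5 had a positive and 5 a negative log2 fold change. Ly6a was higher in every knockout library but did not pass the test described below (1.35-fold, limma adjusted p = 0.488). Cd48 and Flt3, which mark progenitors and are commonly low or absent in LT-HSCs, were high, against the label. Flt3 lay between 121 and 151 FPKM. Cd48 stood at 145, 175 and 219.5 FPKM across the WT replicates and 268, 307 and 263 FPKM across the knockout replicates, higher in every knockout library but not past the test (1.56-fold, limma adjusted p = 0.324). Granulocyte and monocyte markers were also present, and granulocyte markers among them were higher in the knockout libraries. The libraries of the receptor genes Csf1r, Csf3r and Ccr2 overlapped (limma adjusted p = 0.987, 0.943 and 0.989). Of the 14 markers found, 12 had a positive log2 fold change and 3 passed the test described below, all higher. The summed level of the 14 was 6610 to 10392 FPKM in WT and 18650 to 25051 FPKM in knockout libraries. S100a8 and S100a9 were the highest of them, with means of 4135 and 2394 FPKM in WT and 9853 and 5284 FPKM in knockout cells. Mpo, the myeloperoxidase gene, was 6.54-fold higher. Mast cell and eosinophil markers summed to between 33.2 and 43.3 FPKM in WT and 65.0 and 1054 FPKM in knockout libraries, 5 of the 6 tested had a positive log2 fold change and 0 passed, and Prg2 alone stood at 956 FPKM in knockout replicate 1. The part of these markers and of Cd48 in the results below was not tested. All 8 macrophage markers had a negative log2 fold change. They summed to between 22.3 and 139 FPKM in WT and 5.33 and 49.2 FPKM in knockout libraries. T and NK cell markers stayed below 10 FPKM in every library, with Gzma listed at 0 in all. Cd3d, the 1 of the 2 tested with a positive log2 fold change, was 3.82-fold higher, without overlap (limma adjusted p = 0.332). B cell markers summed to between 51.2 and 71.0 FPKM in WT and 58.3 and 116 FPKM in knockout libraries. All 4 tested had a positive log2 fold change and 0 passed. Vpreb1 was higher in every knockout library (7.05-fold, limma adjusted p = 0.389). Megakaryocyte markers summed to between 664 and 1057 FPKM in WT and 359 and 736 FPKM in knockout libraries. Of the 6 tested, 4 had a negative and 2 a positive log2 fold change, and 0 passed. Pf4 was at 0.557 times its WT mean, with overlapping libraries (limma adjusted p = 0.512). Erythroid markers summed to between 88.6 and 131 FPKM in WT and 40.0 and 252 FPKM in knockout libraries, and 0 passed. Car1 ran from 7.34 to 169 FPKM among the knockout libraries. The part of all these markers in the results below was not tested. On the first principal component of all genes tested, knockout replicate 2 scored 67.0 and the others -33.6 to 10.1. In such bulk samples, fewer cells of a type and less RNA per cell cannot be told apart.

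Proteasome subunit genes were among the abundant transcripts of these cells, and the core particle stood above the regulatory particle. All 36 had a mean of at least 1 FPKM over the 6 libraries. Their median level lay at percentile 93.4 of the 11532 genes that reached this limit, whose own median was 13.9 FPKM. Far below the others were Psma8 and Psmb11, at mean levels of 4.08 and 1.88 FPKM. Psma8 encodes the alternative alpha subunit of the testis, and Psmb11 the catalytic subunit of the thymus cortex. Without these, the 14 core genes ranged from 202 FPKM for Psmb7 to 488 FPKM for Psmb2 in the mean over 6 libraries, and the 20 regulatory genes from 25.7 FPKM for Psmd9 to 182 FPKM for Psmd8. The ranges of the means did not overlap. Within single libraries, 1 regulatory gene exceeded the lowest core gene in knockout replicate 1 and 1 in knockout replicate 3, and 0 did in the other 4 libraries.

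The gap between core and regulatory genes was similar in size across libraries. The median of the 14 core genes was 3.19, 2.83 and 2.51 times that of the 20 regulatory genes in WT replicates 1 to 3, and 2.84, 2.80 and 2.78 times in the knockout replicates, so the WT values enclosed the knockout values. Leaving out Psmd5, Psmd9 and Psmd10, which encode assembly chaperones rather than subunits of the finished particle, the ratio lay between 2.28 and 2.77 in the 6 libraries. Alpha and beta genes were close to each other, with a ratio of medians between 0.833 and 1.05. ATPase genes lay above the non-ATPase genes by a factor of 1.16 to 1.28 in every library.

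**Figure D1:**
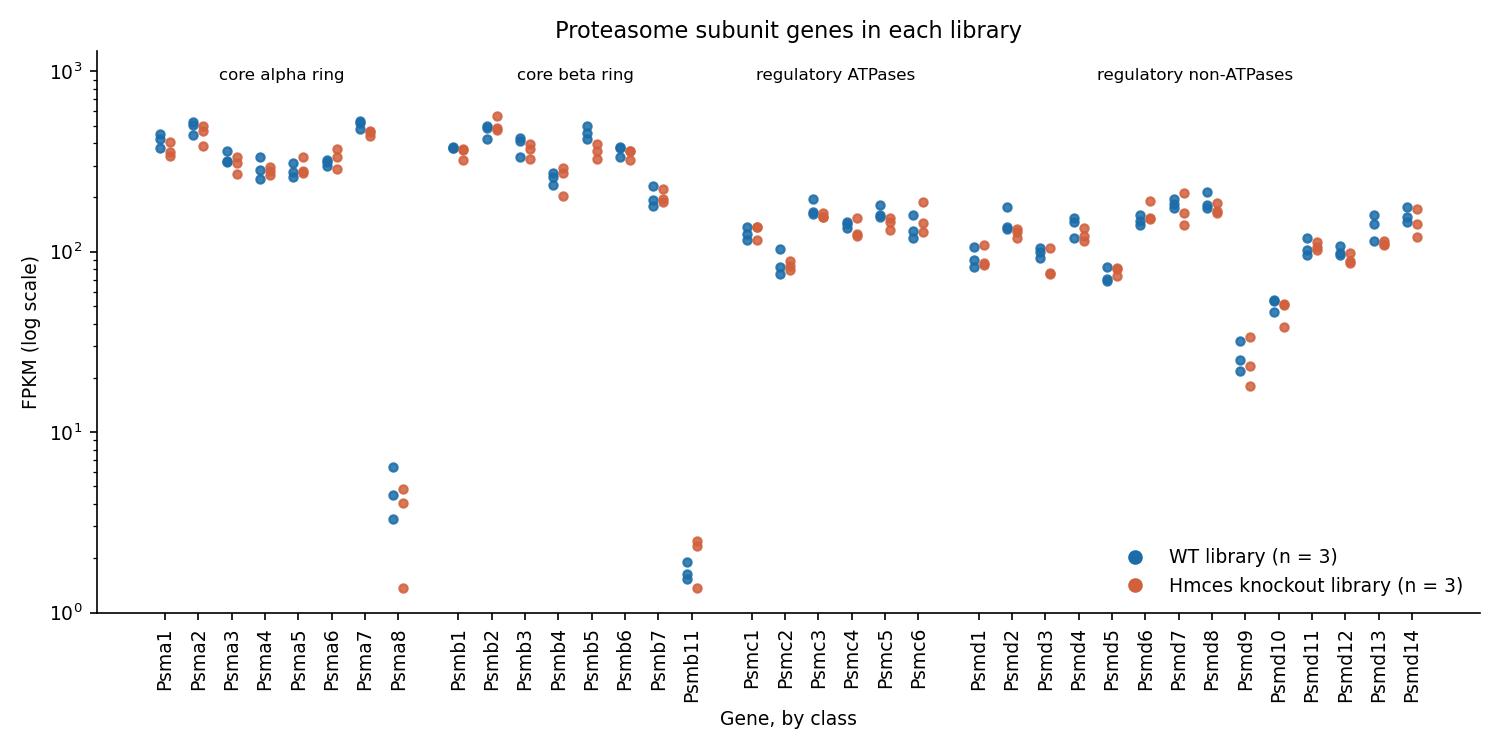
FPKM on a log axis (vertical) of the 36 proteasome subunit genes (horizontal, by class) in each of 3 WT and 3 Hmces knockout libraries, 1 point per library. Core genes lie mostly between 202 and 488 FPKM in the mean, regulatory genes lower, and Psma8 and Psmb11 lie below 10 FPKM in every library.

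**Figure D2:**
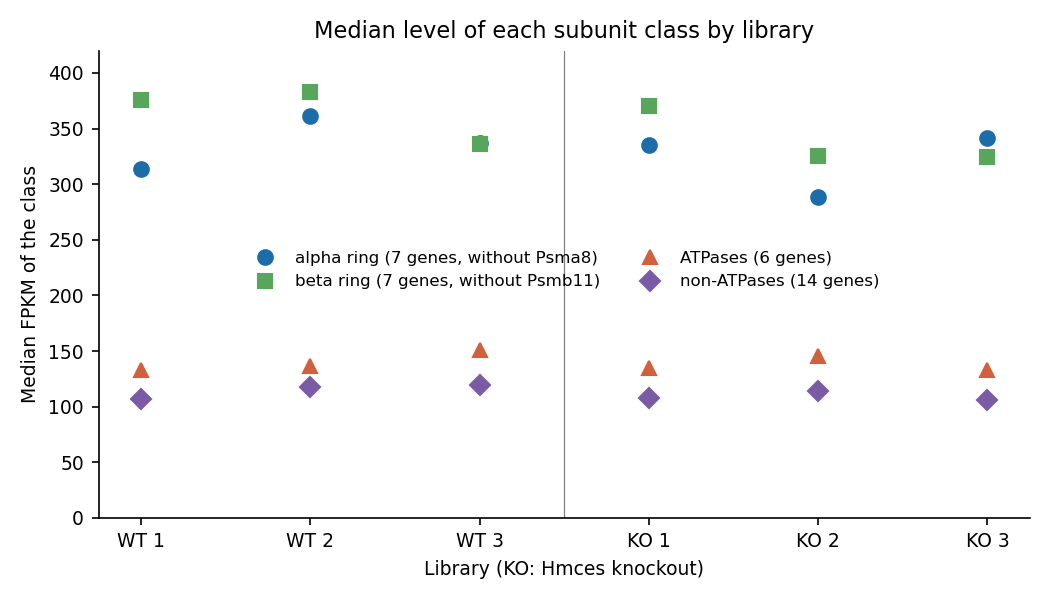
Median FPKM (vertical) of each subunit class in each library (horizontal), with 1 symbol per class and library. Both core rings lie above both regulatory classes in all 6 libraries, and no class separates the WT from the knockout libraries.

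Between genotypes, no proteasome subunit gene passed the test. Of the 36 genes, 0 had an adjusted p under 0.05 in either direction (limma, Benjamini-Hochberg over 11532 genes), where 0.113% of all genes tested did. The smallest adjusted p was 0.482. At an unadjusted p under 0.05 the count was 1, Psmb5, or 2.78% of the members, below the 9.16% of all genes tested. The log2 fold changes, knockout minus WT on the scale of log2(FPKM + 1), were small: their median absolute size was 0.12, against 0.23 over all genes tested. As a set the members were more abundant than most genes tested, and no matching by level was done for these comparisons. With Psma8 and Psmb11 aside, every 95% interval lay between -0.70 and 0.58.

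The small differences leaned to the lower side. The log2 fold change was negative for 25 of 36 members (69.4%), against 51.9% of all genes tested, and the median was -0.10 against -0.014. With only genes of a mean of at least 5 FPKM tested, these medians were -0.10 and -0.033. Without knockout replicate 3 the members' median was -0.032, and under quantile normalization it was -0.05. For 5 members (13.9%) every knockout library lay below every WT library, where this held for 8.34% of all genes tested, and for 0 members every knockout library lay above, against 7.47%. The 5 were Psma7, Psmb1, Psmb5, Psmc5 and Psmd13. Members share libraries and are not replicates, so these counts carry no test. The same knockout libraries held the higher granulocyte, mast cell, Ly6a and Cd48 levels given above. The macrophage markers and Pf4 were lower there in the mean. A link between these markers and the lean was not tested.

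The members also differed between libraries of one genotype. WT replicate 3 held the highest value of the 6 libraries for 15 members and the lowest for 0, whereas WT replicate 1 held the lowest for 8 and the highest for 1. Knockout replicate 3 held the lowest value for 12 members and knockout replicate 2 for 9. Together the members took 0.932%, 0.973% and 1.09% of the FPKM sum in WT libraries and 0.972%, 0.989% and 0.936% in knockout libraries. The mean share was 0.999% ± 0.0826 in WT and 0.966% ± 0.0273 in knockout cells (SD, n = 3 each), so the knockout values lay within the WT range. The coefficient of variation between libraries of a genotype had a median of 8.76% in WT and 9.34% in knockout cells over the 34 members other than Psma8 and Psmb11.

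**Figure D3:**
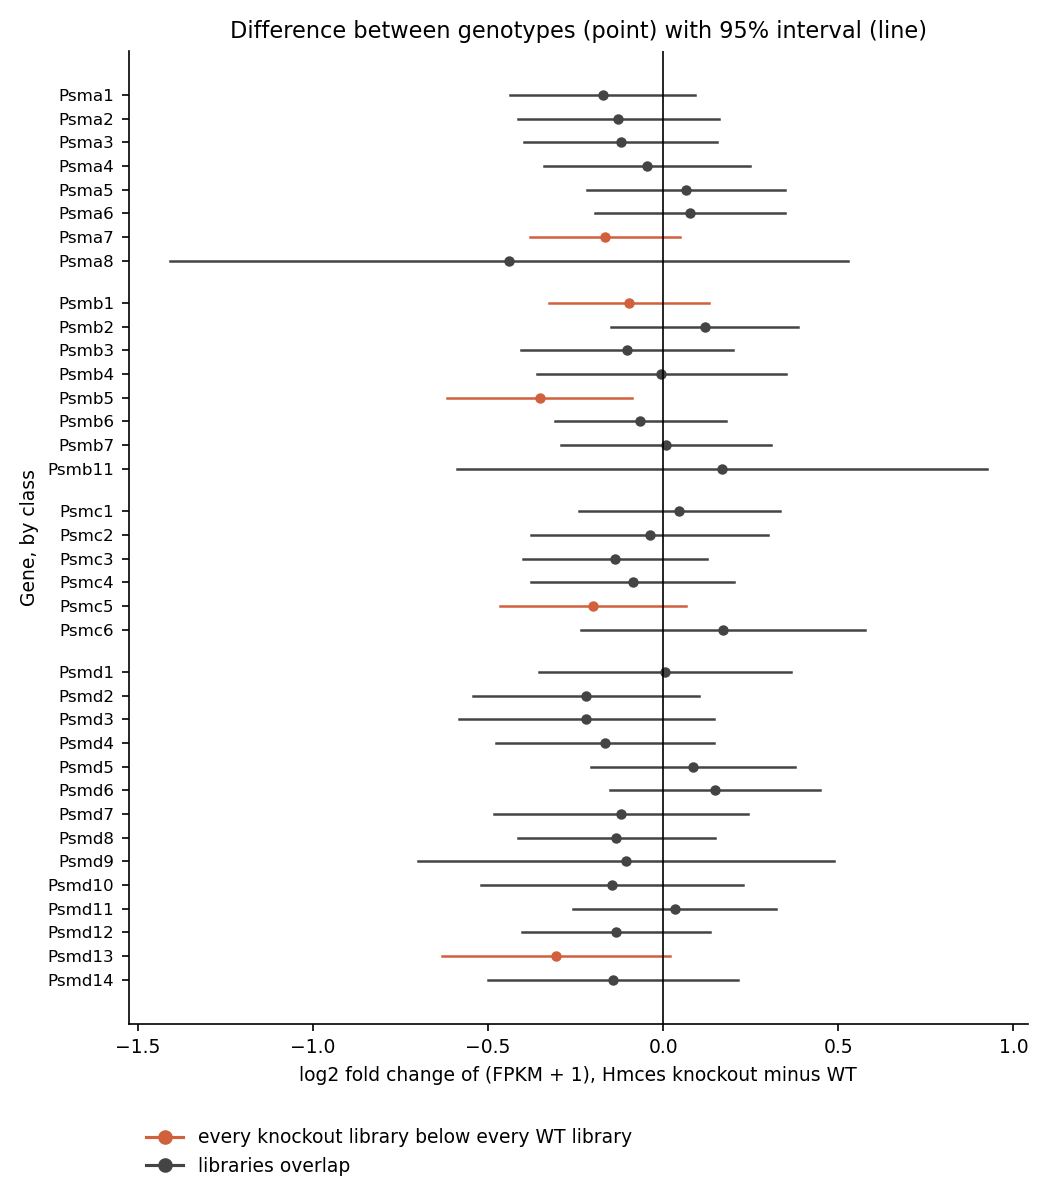
log2 fold change of FPKM + 1, Hmces knockout minus WT (horizontal), for each proteasome subunit gene (vertical, by class), as a point with its 95% limma interval as a line. The 5 genes whose knockout libraries all lie below the WT libraries are coloured, and Psmb5, at -0.35, is the member whose interval does not reach 0.

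Among the alpha subunits, the log2 fold change was negative for 6 of 8, and its median was -0.12. Psma7, the most abundant alpha gene in the mean over the 6 libraries, stood at 480.3, 532 and 517 FPKM across the WT replicates and 460.3, 436 and 465 FPKM across the knockout replicates. All 3 knockout libraries lay below the lowest WT library, by a narrow margin, and the log2 fold change was -0.17 (SE 0.09, limma adjusted p = 0.630). Psma1 stood at 376, 422 and 448 FPKM across the WT replicates and 406, 359 and 341 FPKM across the knockout replicates. Its groups overlapped, since knockout replicate 1 exceeded WT replicate 1, and its log2 fold change was -0.17 (SE 0.11, adjusted p = 0.687). Psma8 stood at 4.48, 3.31 and 6.40 FPKM across the WT replicates and 4.85, 4.07 and 1.37 FPKM across the knockout replicates, so that only knockout replicate 3 was outside the WT range. Its interval was the widest of all members, from -1.41 to 0.53. The remaining 5 alpha genes, Psma2 to Psma6, had mean levels between 286 and 471 FPKM and log2 fold changes between -0.13 and 0.08.

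The beta subunits held the member with the smallest p. Psmb5 encodes the active site that cuts after hydrophobic residues (chymotrypsin-like activity), the main target of proteasome inhibitor drugs. It stood at 422, 500.1 and 457 FPKM across the WT replicates and 394, 361 and 325 FPKM across the knockout replicates. The groups did not overlap, and the knockout mean was 0.783 times the WT mean, 360.0 ± 34.5 against 459.7 ± 39.1 FPKM (SD, n = 3 each). The log2 fold change was -0.35 (SE 0.11, 95% interval -0.62 to -0.09) and did not pass over all genes (limma adjusted p = 0.482). It stayed between -0.42 and -0.28 when each library was left out in turn.

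The other catalytic genes did not separate by genotype. Psmb6, of the caspase-like site, stood at 375, 383 and 336 FPKM across the WT replicates and 363, 362 and 320.5 FPKM across the knockout replicates, a log2 fold change of -0.06 (95% interval -0.31 to 0.18, adjusted p = 0.874). Psmb7, of the trypsin-like site, had the lowest mean level of the core genes after Psma8 and Psmb11. It stood at 180.0, 195 and 231 FPKM across the WT replicates and 222, 196 and 189 FPKM across the knockout replicates, a log2 fold change of 0.0084 (95% interval -0.29 to 0.31, adjusted p = 0.992). For both genes the libraries overlapped, and as a percentage of FPKM + 1 the intervals ran from -19.2% to 13.1% for Psmb6 and from -18.3% to 23.8% for Psmb7.

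Structural beta genes gave one more pair of separated groups. Psmb1 stood at 376, 379 and 376 FPKM across the WT replicates and 371, 321 and 368 FPKM across the knockout replicates. All knockout values lay below the WT values, which were nearly equal to each other, but 2 of the 3 by less than 10 FPKM (log2 fold change -0.10, SE 0.10, limma adjusted p = 0.787). It was -0.030 without knockout replicate 2. Psmb2 had the highest mean of all members over the 6 libraries, although Psma7 exceeded it in each WT library. Psmb2 stood at 421, 497 and 486 FPKM across the WT replicates and 566, 485 and 473 FPKM across the knockout replicates, with knockout replicate 1 alone above the WT range (log2 fold change 0.12, adjusted p = 0.777). It was 0.038 without that library and 0.044 without WT replicate 1. Psmb3 and Psmb4 had log2 fold changes of -0.10 and -0.0055. Psmb11 stood at 1.63, 1.91 and 1.54 FPKM across the WT replicates and 1.37, 2.33 and 2.49 FPKM across the knockout replicates, with overlapping groups. Pseudogenes named after Psma5, Psmb5, Psmb6 and Psmb7 are listed in RefSeq, so the levels of these 4 genes are less certain if reads were shared with such copies. Psmb5 also overlaps the microRNA gene Mir686 there.

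Promoter sequences are shown for Psmb5, the member with the smallest p, and for Psmb6, whose libraries overlapped, because both hold the core letters of the antioxidant response element, TGACNNNGC, to which NRF1 and its relatives are known to bind. The lines give the 250 bases before the RefSeq start (GRCm38.p6), 5′ to 3′ on the gene's strand, with the match in capitals. The Psmb5 stretch is chr14:54617996-54618245 on the minus strand and the Psmb6 stretch is chr11:70525107-70525356 on the plus strand.
Psmb5: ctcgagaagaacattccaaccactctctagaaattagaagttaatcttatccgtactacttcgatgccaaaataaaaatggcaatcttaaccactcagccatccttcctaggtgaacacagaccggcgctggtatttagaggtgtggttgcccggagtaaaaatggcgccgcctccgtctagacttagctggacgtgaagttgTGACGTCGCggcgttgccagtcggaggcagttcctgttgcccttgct
Psmb6: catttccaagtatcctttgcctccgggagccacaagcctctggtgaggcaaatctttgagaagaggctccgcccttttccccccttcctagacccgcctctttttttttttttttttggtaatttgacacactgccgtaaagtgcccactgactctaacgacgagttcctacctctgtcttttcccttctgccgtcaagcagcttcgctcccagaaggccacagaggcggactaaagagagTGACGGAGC
The match began 47 bases before the start in Psmb5 and 9 bases before it in Psmb6. Promoters were found for 29 of the 36 members, 31 windows in all. With both strands searched, TGACNNNGC was present in 5 of these 31 (16.1%), those of Psmb5, Psmb6, Psmc6, Psmd9 and Psmd12, against 10.2% of 32851 windows of the same length. The CCAAT letters were present in 12 of 31 (38.7%), against 33.8%. These matches are descriptions of the letters only. Of the 5 genes with the first motif, Psmb5 was the 1 whose libraries separated by genotype, where 13.9% of all members did. A link between the motif and the difference was not tested.

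The ATPase genes of the regulatory base, which form the ring that unfolds substrates, lay close together in level, from 85.3 FPKM for Psmc2 to 166 FPKM for Psmc3. The log2 fold change was negative for 4 of 6, and its median was -0.06. Psmc5 stood at 157, 160.1 and 181 FPKM across the WT replicates and 133, 146 and 153 FPKM across the knockout replicates, without overlap (log2 fold change -0.20, SE 0.11, limma adjusted p = 0.638). Psmc3 stood at 162, 166 and 195 FPKM across the WT replicates and 156, 155 and 164 FPKM across the knockout replicates, where knockout replicate 3 fell inside the WT range (adjusted p = 0.733). Psmc6 had a log2 fold change of 0.17, with a wide interval from -0.24 to 0.58. It stood at 120, 130 and 159 FPKM across the WT replicates and 189.8, 144 and 129 FPKM across the knockout replicates, and without knockout replicate 1 the change was 0.012. Psmc2 stood at 75.7, 81.8 and 102.9 FPKM across the WT replicates and 88.8, 83.8 and 79.1 FPKM across the knockout replicates, all 3 inside the WT range.

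The log2 fold change was negative for 10 of the 14 non-ATPase genes, and its median was -0.13. Psmd13, a subunit of the lid that sits over the ATPases, stood at 115, 142 and 159 FPKM across the WT replicates and 109, 114 and 110.2 FPKM across the knockout replicates. The knockout libraries were nearly equal and lay just below the lowest WT library, while the WT libraries spread widely (log2 fold change -0.31, SE 0.14, limma adjusted p = 0.559). Psmd2, the large scaffold that docks ubiquitin carriers, stood at 137, 133 and 178 FPKM across the WT replicates and 133, 129 and 119 FPKM across the knockout replicates. Knockout replicate 1 and WT replicate 2 were equal at this rounding, and WT replicate 3 stood alone at the top (log2 fold change -0.22, adjusted p = 0.677). Without that library the log2 fold change was -0.089. Psmd3, another lid subunit, stood at 92.2, 99.1 and 104 FPKM across the WT replicates and 76.4, 105 and 75.0 FPKM across the knockout replicates, with knockout replicate 2 above all WT libraries (log2 fold change -0.22, adjusted p = 0.703). It was -0.37 without knockout replicate 2 and -0.13 without knockout replicate 3.

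The subunits that handle ubiquitin gave no separated groups. Psmd4, a ubiquitin receptor, had means of 139 ± 17.5 FPKM in WT against 124 ± 10.8 FPKM in knockout cells, and Psmd14, the deubiquitinase of the lid, had means of 159 ± 15.2 and 145.5 ± 26.6 FPKM (SD, n = 3 each). Psmd8 had the highest mean level of the regulatory genes, with 174, 182 and 214 FPKM across the WT replicates and 167, 187 and 164 FPKM across the knockout replicates. The least abundant was Psmd9, an assembly chaperone gene, with 25.0, 32.2 and 21.9 FPKM across the WT replicates and 23.2, 33.6 and 18.0 FPKM across the knockout replicates. The other chaperone genes, Psmd5 and Psmd10, had mean levels of 75.9 and 49.1 FPKM and log2 fold changes of 0.09 and -0.15. The remaining 5 genes, Psmd1, Psmd6, Psmd7, Psmd11 and Psmd12, had overlapping libraries.

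Each constitutive catalytic gene has an inducible partner that can replace it to form the immunoproteasome, a form common in blood cells. Psmb8, the partner of Psmb5, exceeded it in every library, at 1.37, 1.28 and 1.26 times its level in WT and 1.45, 1.29 and 1.61 times in knockout libraries. Psmb9 was close to its partner Psmb6, at 0.819, 0.876 and 0.880 times its level in WT and 1.03, 0.865 and 0.928 times in knockout libraries. Psmb10 lay below Psmb7 in every library, at 0.501 to 0.708 times its level. For all 3 pairs the ratios of the genotypes overlapped. Psmb8 itself stood at 577, 642 and 575 FPKM across the WT replicates and 571, 466 and 522 FPKM across the knockout replicates, without overlap and without passing the test (limma adjusted p = 0.613), and Psmb9 and Psmb10 overlapped (adjusted p = 0.896 and 0.792).

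**Figure D4:**
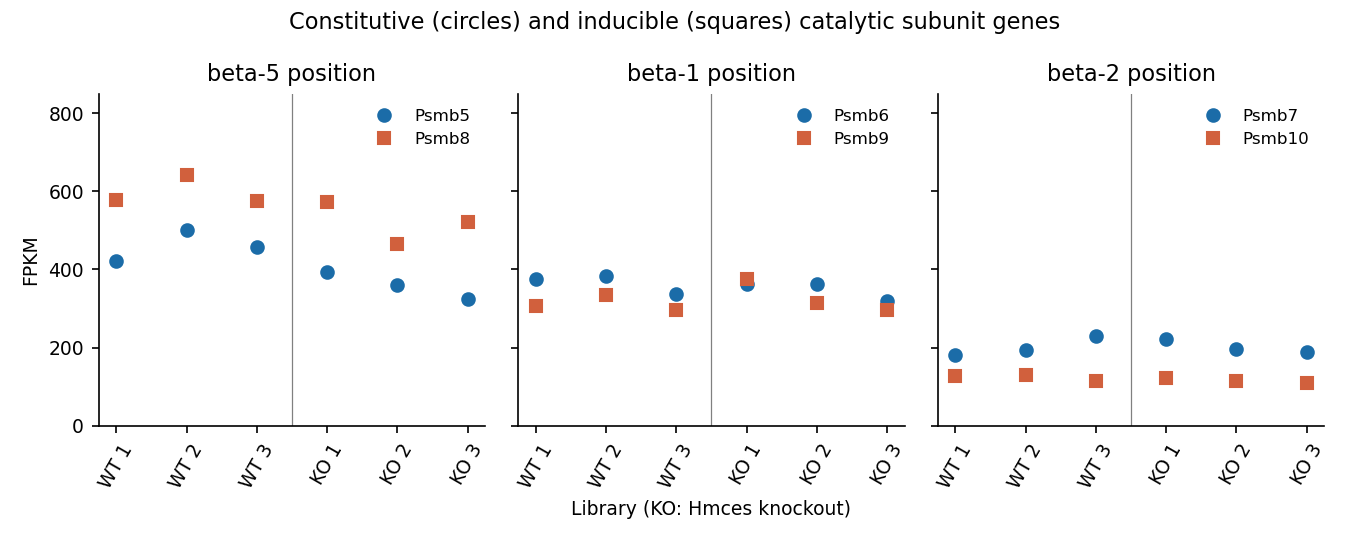
FPKM (vertical) of each constitutive catalytic gene (circles) and its inducible partner (squares) in the 6 libraries (horizontal), 1 panel per position in the beta ring. Psmb8 lies above Psmb5 in every library, Psmb9 is close to Psmb6, and Psmb10 lies below Psmb7.

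No gene of the surrounding pathway passed the test. Over 7 lists covering the immunoproteasome, activators, assembly factors, associated receptors and deubiquitinases, ubiquitin and its activating enzymes, the p97 unfoldase and regulators of proteasome genes, 49 of 50 genes were found and 48 tested. Of these, 0 passed in either direction (limma, adjusted over all genes), where 0.113% of all genes tested did, and 0 had an unadjusted p under 0.05, against 9.16%. In 37 the log2 fold change was negative, against 51.9% of all genes tested, with list medians between -0.15 and -0.07. The genes with the smallest p were Ubqln4, which encodes a shuttle that carries ubiquitinated proteins to the proteasome, and Faf2, a cofactor of the p97 unfoldase. Ubqln4 stood at 15.1, 14.1 and 21.9 FPKM across the WT replicates and 12.6, 11.2 and 10.4 FPKM across the knockout replicates (log2 fold change -0.52, adjusted p = 0.546). Faf2 stood at 16.2, 15.9 and 12.7 FPKM across the WT replicates and 10.6, 9.32 and 11.5 FPKM across the knockout replicates (log2 fold change -0.47, adjusted p = 0.547). For both genes, which were picked by their small p, every knockout library lay below every WT library. This held for 8.34% of all genes tested.

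Partners of the particle itself gave overlapping groups. The activator gene Psme1 had means of 577 ± 43.3 FPKM in WT against 516 ± 87.2 FPKM in knockout cells (adjusted p = 0.729), Psme3 31.5 ± 6.5 and 24.4 ± 4.83 FPKM (adjusted p = 0.671), and the ubiquitin receptor gene Adrm1 91.2 ± 7.80 and 77.6 ± 11.8 FPKM (adjusted p = 0.677; SD, n = 3 each). The assembly chaperone genes Psmg1 and Psmg3 had adjusted p-values of 0.703 and 0.827. For all 6 genes of ubiquitin and its activating enzymes the log2 fold change was negative, and its median was -0.15. Rps27a, which encodes ubiquitin fused to a ribosomal protein, had 1912 ± 98.8 FPKM in WT against 1753 ± 218 FPKM in knockout cells (SD, n = 3 each; limma adjusted p = 0.747). Faf1, a p97 cofactor gene, stood at 22.7, 25.3 and 26.9 FPKM across the WT replicates and 25.6, 6.45 and 13.3 FPKM across the knockout replicates (adjusted p = 0.574). Among the regulators, Sel1l and Nfyb had the smallest p, with adjusted values of 0.733 and 0.879, and Nfe2l3 was listed at 0 in every library. Nfe2l1, the gene of NRF1, had 16.7 ± 3.55 FPKM in WT against 15.9 ± 3.17 FPKM in knockout cells (SD, n = 3 each). Its libraries overlapped (log2 fold change -0.07, limma adjusted p = 0.953).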

How the data were processed

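The authors deposited FPKM per gene, 1 column per library. Per the submitters' processing notes, TopHat2 2.1.1, Cufflinks 2.2.1 and build mm9 were used. The sources used here do not give the options, the annotation or any use of strand. No columns were pooled. The 11532 genes whose FPKM averaged at least 1 were tested on log2(FPKM + 1) with limma 3.58.1 in R 4.3.3 (mean-variance trend, genotype as the only term, two-sided), adjusted by Benjamini-Hochberg over all of them and called under 0.05. The offset understates changes of low genes. Intervals are limma's 95% intervals. Depth was inferred from the step size of low values in 1427 genes with 1 annotated transcript over 1500 nt, assuming fragments of 200 nt, and covers counting error only. The commonest value was shared by 20 to 69 of these genes per library, so the estimates are rough. The members and lists were chosen with earlier results of these data known. Members given library by library were, per class, the 3 with the smallest p, the highest and lowest by mean level, and the 3 catalytic genes, and from each other list the 2 with the smallest p. Of 36 members, 9 overlap another RefSeq gene, so their levels are less certain. Whether same-numbered libraries are pairs could not be told, and the main fit did not pair them. Protein sequences were not used here. One gene that the naming rule selects is not reported here.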

Additional observations from a re-analysis of the deposited data

How the results depend on the processing

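Under 15 alternative fits 0 members were called, and the smallest adjusted p of any member ranged from 0.31 to 0.84. The members' median log2 fold change kept its sign in all 15, and ranged from -0.13 to -0.032 when each library was left out, with the value nearest 0 without knockout replicate 3. The number of members with a negative change ranged from 22 to 29. The number of genes called over the whole table, 13, became 1 when low genes were kept, 6 when the mean-variance trend was dropped, 20 with robust estimation and 32 without small RNA genes, and ranged from 2 to 19 when each library was left out. The cause was not tested. With the replicate number as a block it was 2. Same-numbered libraries had correlations of deviations of 0.08, 0.01 and 0.04. WT replicate 3 and knockout replicate 2 correlated best with each other, at 0.05, and the other libraries with their own number. With 3 libraries per genotype, such correlations cannot show whether the numbers pair the samples. Changes near 0 turned sign. Psmb7 was -0.013 with libraries shifted to one median and ranged from -0.070 to 0.11 when each library was left out, Psmc2 from -0.13 to 0.090 and Psmd9 from -0.34 to 0.098. Without single libraries Psma8 ranged from -0.69 to -0.040, Psmb11 from 0.064 to 0.34, Psmb6 from -0.12 to -0.0055, Psmc3 from -0.19 to -0.053, Psmd8 from -0.19 to -0.045 and Psmd13 from -0.44 to -0.20. Psma8 and Psmb11 have no value under a minimum of 5 FPKM. Depth limits those 2 genes most.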
